A study of Mus musculus with 12 samples.

Results

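The genes described here are 8 transcription factors of retinal bipolar cells, *Isl1*, *Vsx1*, *Bhlhe23*, *Bhlhe22*, *Lhx4*, *Irx5*, *Irx6* and *Prdm8*. Their probe sets were taken from the signal table by 1 rule, that the platform annotation gives the probe set 1 gene symbol and that this symbol is among the 8. The rule found 10 of the 45101 probe sets, for 7 of the 8 genes, where the whole table names 18193 genes. *Isl1*, *Vsx1* and *Lhx4* have 2 probe sets each, and *Bhlhe22* has none under its symbol and was not analysed here. Total RNA of dissected whole retinas was hybridized to Affymetrix Mouse Genome 430 2.0 arrays, with 3 arrays for each of 4 groups. These were *Otx2* CKO retina at P1 and P12 (*Otx2* flox/flox; *Crx*-Cre+) and control retina at P1 and P12 (*Otx2* flox/flox; *Crx*-Cre-), so that both genotypes carried the floxed *Otx2* alleles and differed in the Cre transgene. The *Crx* promoter directs Cre to developing photoreceptors, and strain, sex and the number of mice behind an array are not given in the sources used here. P-values therefore measure the spread between these arrays, which may be partly technical.

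Bipolar cells are the interneurons that carry the signal of rods and cones to amacrine and ganglion cells. ON types depolarize to light and OFF types hyperpolarize, and rod bipolar cells serve the rods. They are born late, together with rods, and most of their birth and maturation falls into the first weeks after birth, so that P1 lies early in this period and P12 late. Otx2 is a homeodomain factor made in photoreceptor precursors and in bipolar cells, and the bipolar factors act downstream of more general factors such as Otx2. Isl1, a LIM homeodomain factor, is needed for ON and rod bipolar cells and is also made in starburst amacrine and ganglion cells. Vsx1, a paired-like homeodomain factor, belongs mainly to cone bipolar types, Bhlhe23 is needed for rod bipolar cells to mature, and Lhx4 is found in cone bipolar cells and in young cones. Irx5 and Irx6 are Iroquois homeodomain factors of cone bipolar types, and Prdm8, a PR domain protein, is made in bipolar cells and in amacrine cells.

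Because Otx2 and its relative Crx bind the core letters TAATC, the 250 bases before the annotated start of the members were read for these letters on both strands. RefSeq promoters (build GRCm38.p6) were matched by symbol for 5 of the 8 genes, and *Irx5*, *Irx6* and *Bhlhe22* had no entry. *Isl1* held 2 matches, *Prdm8* held 1, and *Vsx1*, *Bhlhe23* and *Lhx4* held 0. Of the 32851 promoter windows listed by RefSeq, 19.8% held at least 1. The letters TAATTA, a core bound by LIM homeodomains and by Vsx1 that reads the same on both strands and can share TAAT with the first motif, were found in none of the 5 windows and in 4.84% of all. Of these windows, 3 are printed in the direction of transcription, *Isl1* and *Vsx1* because both were lower in *Otx2* CKO retina at P12 and only the first held the letters, and *Prdm8* because it held them and moved the other way in the deposited signals. Capitals mark TAATC or its reverse complement GATTA.
Isl1, chr13:116309689-116309938, minus strand: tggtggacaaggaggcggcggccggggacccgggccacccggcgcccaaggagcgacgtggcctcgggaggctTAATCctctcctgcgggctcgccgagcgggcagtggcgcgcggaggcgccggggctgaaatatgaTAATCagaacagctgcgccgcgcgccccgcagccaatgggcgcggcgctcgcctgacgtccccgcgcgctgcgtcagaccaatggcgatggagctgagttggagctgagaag
Vsx1, chr2:150689138-150689387, minus strand: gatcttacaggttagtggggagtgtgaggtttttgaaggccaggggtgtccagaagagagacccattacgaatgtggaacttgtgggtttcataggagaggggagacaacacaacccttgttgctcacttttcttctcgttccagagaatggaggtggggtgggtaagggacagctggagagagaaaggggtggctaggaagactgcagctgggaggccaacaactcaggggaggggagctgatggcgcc
Prdm8, chr5:98180619-98180868, plus strand: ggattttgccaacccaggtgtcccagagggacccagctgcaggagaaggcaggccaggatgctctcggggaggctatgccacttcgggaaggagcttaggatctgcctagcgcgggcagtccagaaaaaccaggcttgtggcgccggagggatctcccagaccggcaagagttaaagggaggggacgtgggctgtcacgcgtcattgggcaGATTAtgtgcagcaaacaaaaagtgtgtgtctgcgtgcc
The *Isl1* matches begin at positions −177 and −112 from the start, and the *Prdm8* match, on the reverse strand, at −39. The G and C content of the windows was 71.2% in *Isl1*, 54.4% in *Vsx1* and 59.6% in *Prdm8*. A match is a run of letters, and no binding was measured in these samples.

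A value is the signal intensity of a probe set as deposited, on a linear scale. Tests were made on log2(signal + 16) with limma over the 12 arrays, for probe sets that reached a mean of 50 in at least 1 of the groups compared, and p-values were adjusted over all probe sets tested in that comparison (threshold 0.05). A log2 change on this scale understates the change of dim probe sets, and no fold is printed where a group mean lies under 16. Trimmed mean signals were 108 to 171 in P12 *Otx2* CKO arrays, 96.2 to 111 in P12 control arrays, 21.5 to 27.4 in P1 *Otx2* CKO arrays and 28.1 to 29.7 in P1 control arrays, and the brightest array was replicate 1 of P12 *Otx2* CKO. Over all tested probe sets the median change was therefore not 0 but 0.39 at P12 and −0.20 at P1, and scaling the arrays moved it to between 0.08 and 0.12 at P12. The probe set of *Otx2* itself had signals of 245, 167 and 108 in P12 *Otx2* CKO arrays against 1058, 1048 and 803 in P12 control arrays, and 144, 108 and 154 in P1 *Otx2* CKO arrays against 376, 358 and 283 in P1 control arrays. The genotypes did not overlap at either age. Whether this probe set reads the floxed stretch of *Otx2* is not given in the sources used here.

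At P12, 7 of the 10 member probe sets, all those of *Isl1*, *Vsx1*, *Bhlhe23* and *Lhx4*, were lower in *Otx2* CKO retina, and 1, of *Prdm8*, was higher. The probe sets of *Vsx1*, *Bhlhe23* and *Lhx4* reached the signal limit in control retina only, with P12 *Otx2* CKO means of 2.27 to 12.0. They therefore entered the test only because control was the brighter group, and their direction is not independent of that limit. With the signal limit removed the same 7 were lower. Of all 21390 tested probe sets 4.54% were lower and 14.2% higher (971 and 3027 probe sets, against 1515 and 1449 after quantile normalization of the 12 arrays). The median log2 change was −1.96 over the 10 member probe sets and 0.39 over all tested. Arrays of the 2 genotypes did not overlap in 5.41% of all tested probe sets with *Otx2* CKO lower, and in 20.8% with *Otx2* CKO higher. In bulk retina, fewer cells of a type and less RNA per cell cannot be told apart.

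**Figure D1:**
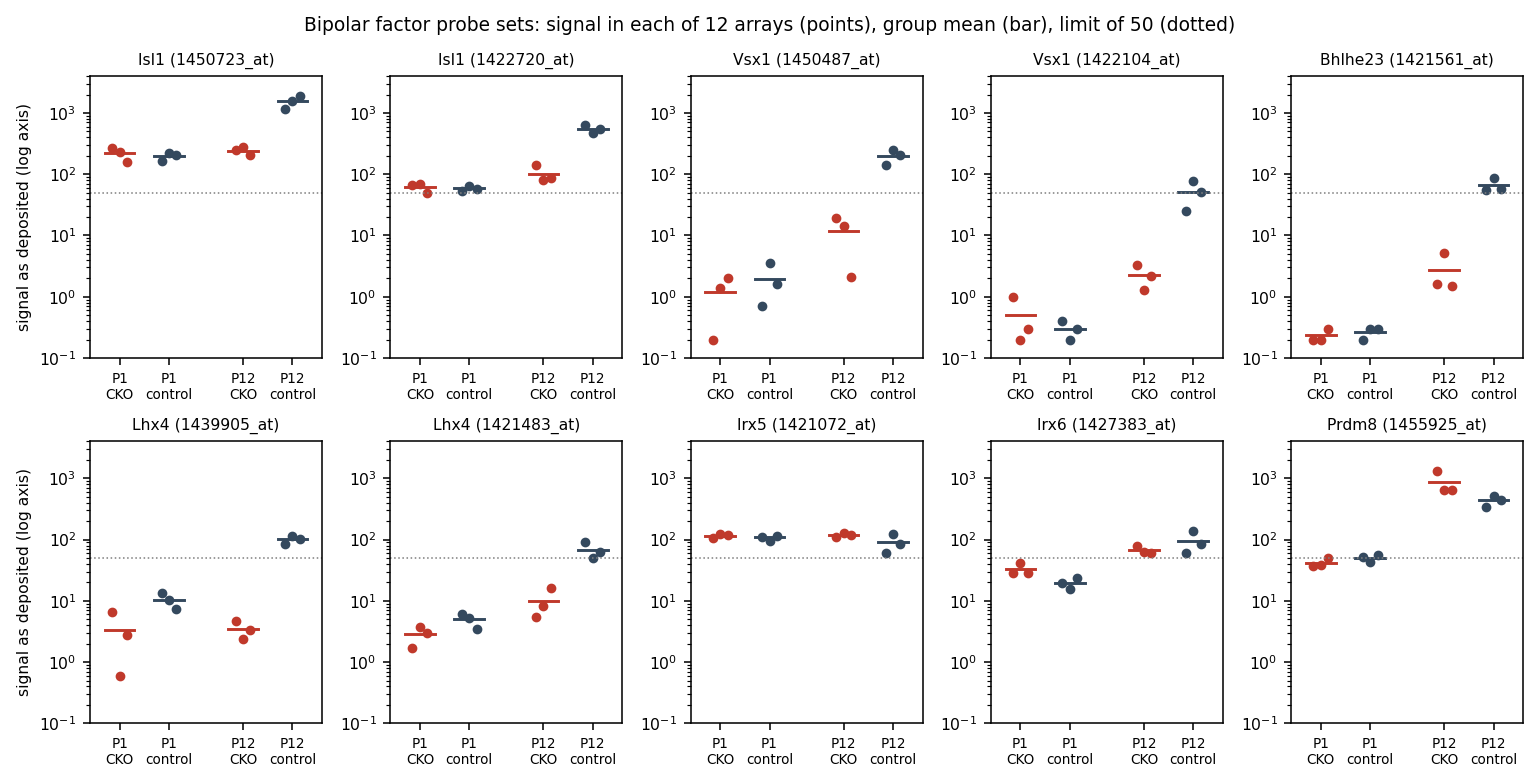
Signal as deposited (log axis) of the 10 bipolar factor probe sets in each of the 12 arrays (points) with group means (bars), *Otx2* CKO in red and control in dark blue, and the signal limit of 50 dotted. *Isl1*, *Vsx1*, *Bhlhe23* and *Lhx4* stand apart at P12 with every *Otx2* CKO array below every control array, *Prdm8* is above, and *Irx5* and *Irx6* overlap.

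*Isl1* was the brightest of the factors that were lower. Its probe set 1450723_at had signals of 249, 275 and 206 in P12 *Otx2* CKO arrays against 1182, 1587 and 1858 in P12 control arrays. Every *Otx2* CKO array was lower than every control array, with means of 243 ± 34.7 in *Otx2* CKO and 1542 ± 340.3 in control retina (SD, n = 3 each), a 6.35-fold difference. The fit gave a log2 change of −2.57 (SE 0.24, limma adjusted p = 1.66e-05). The other *Isl1* probe set, 1422720_at, gave 140, 81.7 and 86.1 in *Otx2* CKO arrays and 631, 467 and 541 in control arrays, again without overlap. Its change was −2.27 on the log2 scale (SE 0.23, limma adjusted p = 3.52e-05). Both probe sets of *Isl1* thus moved alike, and neither *Otx2* CKO mean was below the signal limit, so that *Isl1* RNA remained measurable in *Otx2* CKO retina.

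*Vsx1*, *Bhlhe23* and *Lhx4* fell to signals near the bottom of the scale. *Vsx1* (1450487_at) had signals of 19.3, 14.5 and 2.1 in P12 *Otx2* CKO arrays against 144, 249 and 203 in P12 control arrays. All 3 *Otx2* CKO arrays were under the limit of 50 and all 3 control arrays above it, with a log2 change of −2.97 (SE 0.27, adjusted p = 1.21e-05 from limma), the largest among the members at this offset. The dimmer *Vsx1* probe set, 1422104_at, had 3.3, 1.3 and 2.2 in *Otx2* CKO arrays and 25.3, 76.2 and 51.1 in control arrays. Its control signals spread widely around the limit of 50, and its change was −1.80 on the log2 scale (SE 0.26, limma adjusted p = 0.000562). *Bhlhe23* (1421561_at), the rod bipolar factor, had signals of 1.6, 5.2 and 1.5 in *Otx2* CKO arrays against 56.0, 85.3 and 57.2 in control arrays. The groups did not overlap, and the fit gave a log2 change of −2.12 (SE 0.20, limma adjusted p = 1.96e-05).

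*Lhx4* showed the same order with both probe sets. 1439905_at had signals of 4.7, 2.4 and 3.3 in P12 *Otx2* CKO arrays against 83.8, 115 and 104 in P12 control arrays, and its change was −2.58 on the log2 scale (SE 0.21, limma adjusted p = 4.51e-06). It had the lowest adjusted p of the 10. 1421483_at had 5.4, 8.1 and 16 in *Otx2* CKO arrays and 91.3, 50.1 and 61.8 in control arrays. The groups were again apart, and the fit gave a log2 change of −1.69 (SE 0.23, limma adjusted p = 0.000389). The 7 calls were kept under each of 5 scalings of the arrays and without any 1 of the 12 arrays, and 1422104_at of *Vsx1* lost its call where P12 was fitted alone (adjusted p = 0.0618 from limma).

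**Figure D2:**
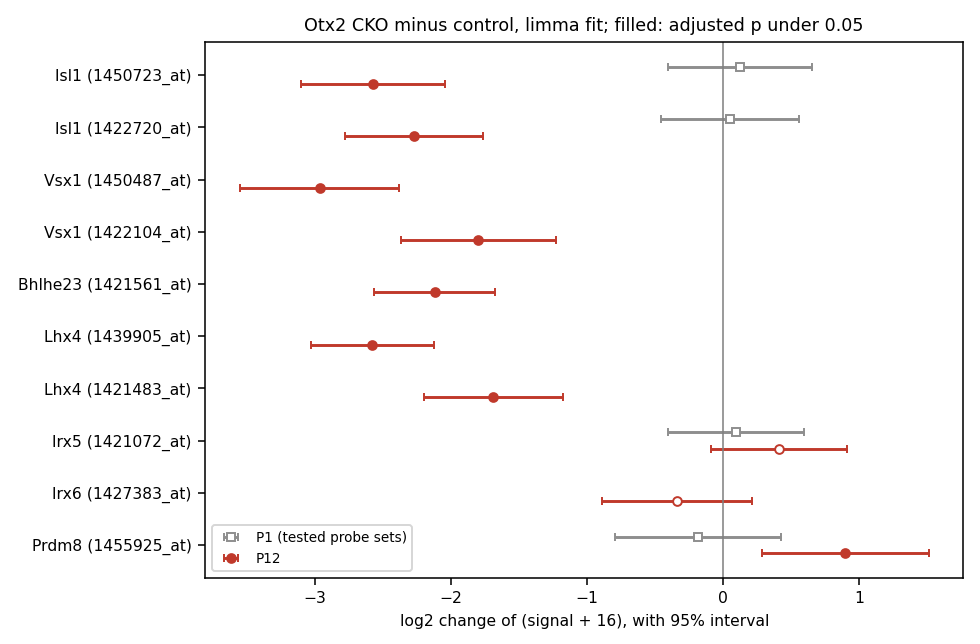
Log2 change of (signal + 16), *Otx2* CKO minus control, with 95% intervals from limma for the 10 probe sets at P12 (red circles) and the 4 tested at P1 (grey squares), filled where the adjusted p was under 0.05. At P12 the 7 probe sets of *Isl1*, *Vsx1*, *Bhlhe23* and *Lhx4* lie between −2.97 and −1.69 and *Prdm8* lies at 0.90, and the intervals of *Irx5* and *Irx6* span 0.

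The Iroquois factors did not pass the test at P12. *Irx5* (1421072_at) had signals of 112, 130 and 120 in *Otx2* CKO arrays and 60.1, 124 and 85.6 in control arrays. The groups overlapped through control replicate 2, and the log2 change was 0.41 with an interval of −0.09 to 0.91 (adjusted p = 0.230 from limma), close to the median of all probe sets. Without that array it was 0.63 (adjusted p = 0.0328 from limma), and under the 5 scalings it was 0.13 to 0.16. *Irx6* (1427383_at) had signals of 78.6, 63.9 and 60.8 in *Otx2* CKO arrays and 61.2, 137 and 83.8 in control arrays. The groups overlapped, and the log2 change was −0.34 with an interval of −0.89 to 0.21 (adjusted p = 0.359 from limma). These intervals lie apart from those of the 7 probe sets that were lower, and they do not show that the *Irx* genes were alike in both genotypes.

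*Prdm8* (1455925_at) had signals of 1324, 646 and 637 in P12 *Otx2* CKO arrays against 345, 524 and 442 in P12 control arrays. Every *Otx2* CKO array was higher than every control array, with means of 869 ± 394 in *Otx2* CKO and 437 ± 89.7 in control retina (SD, n = 3 each), a 1.99-fold difference. Such a lack of overlap, with *Otx2* CKO higher, was common, at 20.8% of all tested probe sets. The fit gave a log2 change of 0.90 (SE 0.28, limma adjusted p = 0.0430). The highest value came from replicate 1 of *Otx2* CKO, the brightest array, and without it the change was 0.56 (adjusted p = 0.122 from limma). Under each of the 5 scalings the change was 0.58 to 0.62 and not past the threshold (adjusted p = 0.0513 to 0.288 from limma). *Prdm8* is thus higher in the deposited signals and kept its direction under every alternative tried, and it lost its call under 17 of 23 alternatives.

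At P1, only *Isl1*, *Irx5* and *Prdm8* had a mean signal of at least 50 in a genotype, so 4 of the 10 probe sets were tested. In limma 0 of the 4 were lower and 0 higher, where 0.179% of all 8384 tested probe sets were lower and 0% higher. Before adjustment (p under 0.05) the counts were also 0 and 0 of the 4, against 147 lower and 6 higher of all 8384. *Isl1* (1450723_at) had signals of 264, 234 and 159 in P1 *Otx2* CKO arrays and 166, 219 and 205 in P1 control arrays. Its second probe set had 66.9, 69.5 and 48.5 in *Otx2* CKO arrays and 54.1, 64.4 and 57.2 in control arrays. Both overlapped, with log2 changes of 0.13 (interval −0.40 to 0.66, adjusted p = 0.910) and 0.05 (interval −0.46 to 0.56, adjusted p = 0.951) from limma. Under the 5 scalings the *Isl1* changes at P1 were 0.32 to 0.41 and 0.23 to 0.31, none past the threshold. *Irx5* had 106, 126 and 118 in *Otx2* CKO arrays and 112, 96.5 and 116 in control arrays, and *Prdm8* had 37.6, 39.2 and 49.7 in *Otx2* CKO arrays and 51.7, 43.2 and 55.4 in control arrays. The genotypes overlapped in both, with log2 changes of 0.09 (adjusted p = 0.913 from limma) in *Irx5* and −0.19 (adjusted p = 0.910 from limma) in *Prdm8*.

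The other 6 probe sets were too dim to be tested at P1. *Vsx1*, *Bhlhe23* and the second probe set of *Lhx4* (1421483_at) had at most 6.2 in any P1 array. *Lhx4* (1439905_at) had signals of 6.6, 0.6 and 2.8 in P1 *Otx2* CKO arrays and 13.6, 10.3 and 7.3 in P1 control arrays, and *Irx6* had 28.8, 40.9 and 28.5 in *Otx2* CKO arrays and 19.8, 15.6 and 23.8 in control arrays. The genotypes did not overlap in these probe sets, *Lhx4* being lower and *Irx6* higher in *Otx2* CKO retina. Of all tested probe sets at P1, 22.0% did not overlap with *Otx2* CKO lower and 0.358% with *Otx2* CKO higher. With the signal limit removed neither passed the test (log2 change −0.45 in *Lhx4* and 0.44 in *Irx6*, adjusted p = 1 each from limma).

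Whether the genotype effect differed between the ages was tested as its own contrast. It was lower at P12 than at P1 for the same 7 probe sets of *Isl1*, *Vsx1*, *Bhlhe23* and *Lhx4*, and higher for 0 of the 10, where 1.79% of all 21530 tested probe sets were lower and 3.08% higher (386 and 663 probe sets, against 593 and 224 after quantile normalization). Of these 4 genes only *Isl1* reached the signal limit at P1. The P1 means of *Vsx1*, *Bhlhe23* and *Lhx4* were 0.233 to 10.4 over both genotypes, under the offset. A genotype effect at P1 could therefore hardly show in them. For these 3 genes the contrast largely repeats the P12 test and cannot decide whether the effect was particular to P12. Before adjustment, 8 of the 10 were lower, with *Irx6* added, and *Prdm8* was higher, against 782 lower and 4470 higher of all 21530. The difference was −2.70 (SE 0.35, adjusted p = 0.000701 from limma) for *Isl1* 1450723_at, −2.91 (SE 0.38, adjusted p = 0.000856) for *Vsx1* 1450487_at, −2.11 (SE 0.29, adjusted p = 0.00110) for *Bhlhe23* and −2.13 (SE 0.29, adjusted p = 0.00121) for *Lhx4* 1439905_at. The dimmer probe sets of *Vsx1* (−1.82, adjusted p = 0.0156 from limma) and *Lhx4* (−1.53, adjusted p = 0.0210) lost the call without single P1 arrays, *Vsx1* without any of the 3 P1 control arrays or *Otx2* CKO replicate 3 (adjusted p of 0.0510 to 0.0579) and *Lhx4* without any of the 6 P1 arrays (0.0508 to 0.0813). *Irx5* (0.31, adjusted p = 0.531 from limma), *Irx6* (−0.78, adjusted p = 0.202) and *Prdm8* (1.08, adjusted p = 0.130) did not pass. With the experiment number as a block, *Irx6* (adjusted p = 0.0447 from limma) and *Prdm8* (adjusted p = 0.0154) did, where the calls over all 21530 probe sets became 860 lower and 6224 higher. Under the 5 scalings the *Prdm8* difference was 0.58 to 0.63 and did not pass (adjusted p = 0.272 to 0.671 from limma). With median scaling *Lhx4* 1439905_at (−1.28, adjusted p = 0.0687 from limma) and *Vsx1* 1422104_at (−1.35, adjusted p = 0.0635) lost the call. With an offset of 1 both *Lhx4* probe sets (adjusted p = 0.0647 and 0.114 from limma) and *Vsx1* 1450487_at (adjusted p = 0.0564) lost it.

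To set P12 against P1 the 12 arrays were quantile normalized, since the P12 arrays were several times brighter as deposited. In control retina 5 of the 7 tested member probe sets were higher at P12, both of *Isl1* and those of *Vsx1*, *Lhx4* and *Prdm8*, and *Irx5* was lower, where 19.5% of all 17646 tested probe sets were higher and 19.7% lower. *Vsx1* (1450487_at) had quantile-normalized signals of 103, 164 and 150.0 at P12 and 2.35, 10.8 and 5.05 at P1, and its log2 change of 2.81 (SE 0.25, adjusted p = 3.13e-06 from limma) was the largest of the members. *Isl1* (1450723_at) had 1063, 847 and 1367 at P12 and 414, 524 and 475 at P1. P12 lay above P1 in every array of both genes, and the *Isl1* change was 1.16 (SE 0.25, adjusted p = 0.00276 from limma), with 1.36 (adjusted p = 0.000623) in its second probe set. With median scaling the first probe set missed the threshold (0.99, adjusted p = 0.0559 from limma). *Lhx4* (1439905_at) averaged 71.9 ± 15.3 at P12 and 27.1 ± 7.12 at P1 (SD, n = 3 each), with a change of 1.03 (adjusted p = 0.00446 from limma, and 0.0575 with an offset of 1). *Bhlhe23* stayed under the limit after normalization, with means of 46.9 ± 16.6 at P12 and 1.08 ± 0.298 at P1, and was not tested.

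In *Otx2* CKO retina the order of the ages was the other way round for *Isl1*. Of the 5 tested member probe sets 4 were lower at P12 than at P1, both of *Isl1* and those of *Irx5* and *Irx6*, and *Prdm8* was higher, where 13.3% of all 17259 tested probe sets were lower and 14.2% higher. *Isl1* (1450723_at) had quantile-normalized signals of 98.1, 180.1 and 132 in P12 *Otx2* CKO arrays and 685, 684 and 441 in P1 *Otx2* CKO arrays. The ages did not overlap, and the fit gave a log2 change of −2.03 (SE 0.25, limma adjusted p = 8.48e-05), with −1.42 (adjusted p = 0.000745) in its second probe set. As deposited, *Isl1* had nearly the same signal at both ages in *Otx2* CKO retina, with means of 243 ± 34.7 at P12 and 219 ± 53.9 at P1 (SD, n = 3 each), and a change of 0.16 (adjusted p = 0.532 from limma), and its second probe set was higher at P12 (0.59, adjusted p = 0.0283). The direction of the *Isl1* change with age in *Otx2* CKO retina thus depends on whether the arrays are put on a common scale. With median and spike scaling, as with quantile normalization, both probe sets were lower at P12. The change in control retina was upward with and without a common scale.

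**Figure D3:**
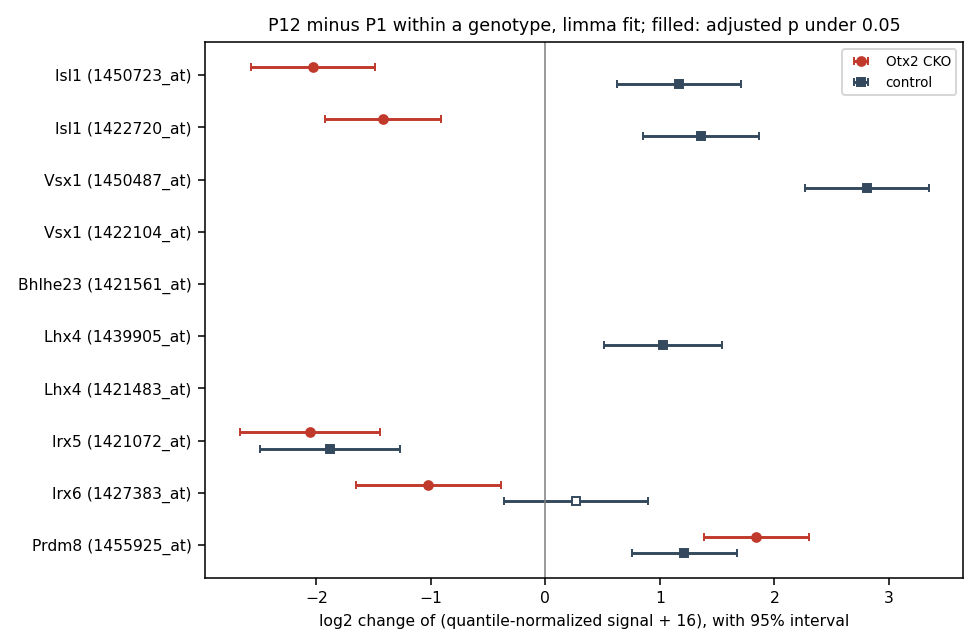
Log2 change of (quantile-normalized signal + 16), P12 minus P1, with 95% intervals from limma, in *Otx2* CKO (red circles) and control retina (dark blue squares), for the member probe sets tested in each, filled where the adjusted p was under 0.05. *Isl1* lies at −2.03 and −1.42 in *Otx2* CKO and at 1.16 and 1.36 in control retina, while *Irx5* lies near −2 and *Prdm8* above 1 in both genotypes.

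*Irx5* and *Prdm8* moved with age in 1 direction in both genotypes. *Irx5* had quantile-normalized signals of 42.5, 90.5 and 75.7 in P12 *Otx2* CKO arrays and 274, 389 and 335 in P1 *Otx2* CKO arrays, and 36.8, 90.7 and 62.0 in P12 control arrays and 279, 240 and 275 in P1 control arrays. Each genotype was lower at P12, with log2 changes of −2.06 (SE 0.28, adjusted p = 0.000191 from limma) in *Otx2* CKO and −1.88 (SE 0.28, adjusted p = 0.000221) in control retina. As deposited the changes were 0.04 (adjusted p = 0.853 from limma) in *Otx2* CKO and −0.27 (adjusted p = 0.292) in control retina. *Prdm8* had 612, 404 and 425 in P12 *Otx2* CKO arrays and 92.3, 131 and 143 in P1 *Otx2* CKO arrays, and 271, 318 and 321 in P12 control arrays and 127, 108 and 131 in P1 control arrays. It was higher at P12 in each genotype, with log2 changes of 1.84 (SE 0.21, adjusted p = 5.01e-05 from limma) in *Otx2* CKO and 1.21 (SE 0.21, adjusted p = 0.000680) in control retina, and under every scaling tried.

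*Irx6* was lower at P12 in *Otx2* CKO retina (log2 change −1.02, SE 0.29, adjusted p = 0.0200 from limma), with quantile-normalized signals of 29.2, 47.8 and 37.8 at P12 and 70.4, 137 and 82.2 at P1. It entered this test through the P1 arrays only. In control retina it had 37.6, 98.1 and 60.7 at P12 and 48.1, 41.0 and 57.0 at P1, which overlapped (log2 change 0.27, adjusted p = 0.485 from limma). The *Otx2* CKO call was lost with spike scaling (−0.49, adjusted p = 0.137 from limma) and without P1 *Otx2* CKO replicate 2 (−0.78, adjusted p = 0.0887) or P12 *Otx2* CKO replicate 1 (−0.90, adjusted p = 0.0679) or 3 (−1.02, adjusted p = 0.0535), and as deposited the change was 0.79 (adjusted p = 0.0103).

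**Figure D4:**
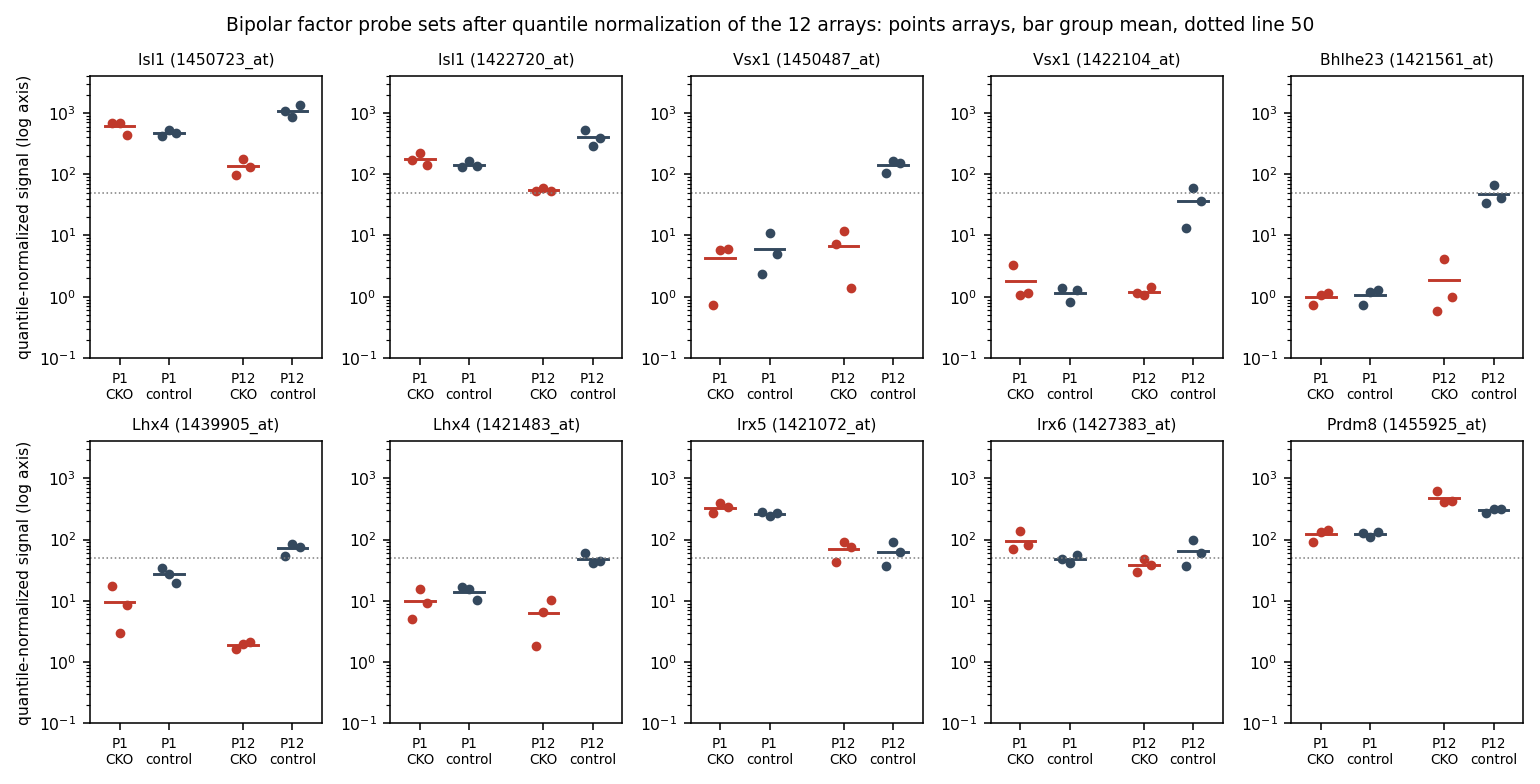
Quantile-normalized signal (log axis) of the 10 probe sets in the 12 arrays (points) with group means (bars), *Otx2* CKO in red and control in dark blue, and the limit of 50 dotted. The means of *Isl1* 1450723_at are 137 in P12 *Otx2* CKO and 1092 in P12 control, with 603 in P1 *Otx2* CKO and 471 in P1 control between them, and *Irx5* is lower at P12 in both genotypes.

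Over the 4 groups the order of levels differed among the members. On the quantile-normalized scale *Isl1* was highest in P12 control and lowest in P12 *Otx2* CKO retina, and the P1 genotypes, between them, overlapped. *Vsx1*, *Bhlhe23* and both probe sets of *Lhx4* were highest in P12 control retina, and in *Vsx1* and *Bhlhe23* the other 3 groups overlapped one another near the bottom of the scale. *Lhx4* (1439905_at) had 17.4, 3 and 8.54 in P1 *Otx2* CKO arrays against 33.8, 27.7 and 19.6 in P1 control arrays, and was lowest in P12 *Otx2* CKO arrays with 1.63, 1.94 and 2.1. *Irx6* was lower in P12 than in P1 *Otx2* CKO retina and overlapped between P12 and P1 control retina. *Irx5* was higher in both P1 groups than in both P12 groups, and its genotypes overlapped at each age. *Prdm8* was highest in P12 *Otx2* CKO retina, then in P12 control retina, and the P1 groups overlapped, at 122 ± 26.5 in *Otx2* CKO and 122 ± 12.0 in control retina (SD, n = 3 each).

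The likeness of patterns was described by Pearson's r over the 12 arrays on the quantile-normalized log2 scale, as a description, since all genes share the same 4 groups and arrays. The probe sets of 1 gene had r of 0.957 in *Isl1*, 0.928 in *Vsx1* and 0.843 in *Lhx4*. Between genes, *Vsx1* (1450487_at) and *Bhlhe23* had the highest r, 0.985, and *Irx5* and *Prdm8* the lowest, −0.880. Among 10860 genes, the 3 most like *Vsx1* were *Susd3*, *Lyve1* and *Kcnj14* (r 0.991 to 0.993), and those most like *Bhlhe23* were *AI847159*, *Cabp4* and *Nxnl1* (0.992 to 0.994). *Isl1* was most like *Scarb1*, *Rpa1* and *Pcbp4* (0.929 to 0.959), and *Lhx4* most like *Ankrd33b*, *Podxl* and *Fam89a* (0.963 to 0.975). *Irx5* was most like *Cdca4*, *Pafah1b3* and *Prdx4* (0.987 to 0.991), *Irx6* like *Scd1*, *Tlcd3a* and *Smad3* (0.894 to 0.914), and *Prdm8* like *Cacna2d3*, *Ctsc* and *Mgll* (0.976 to 0.980).

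Relatives of the members in the same gene families did not move as 1 group at P12. Of 19 listed relatives 17 had a probe set and 11 were tested, of which 3 were lower and 3 higher in *Otx2* CKO retina. Of all 21390 tested probe sets 4.54% were lower and 14.2% higher. The 3 lower genes reached the signal limit in control retina only, and the higher *Olig1* and *Lhx9* in *Otx2* CKO retina only. Their direction is therefore not independent of that limit. With the limit removed, 3 of the 11 were again lower and 3 higher. *Lhx3*, the closest relative of *Lhx4*, was lower (20.9 ± 20.7 in *Otx2* CKO and 165 ± 66.1 in control retina, SD, n = 3 each, log2 change −2.38, adjusted p = 0.000639 from limma), as were *Lhx1*, a horizontal cell factor (−1.58, adjusted p = 0.00107), and *Prdm1*, which favors photoreceptor over bipolar fate (−2.05, adjusted p = 0.00384). *Olig1*, of the same basic helix-loop-helix subfamily as *Bhlhe23*, was higher (95.3 ± 8.20 in *Otx2* CKO and 5.70 ± 3.75 in control retina, log2 change 2.37, adjusted p = 6.00e-05 from limma), as were *Lhx2* (1.46, adjusted p = 0.0252) and *Lhx9* (0.99, adjusted p = 0.00427). Under the 5 scalings *Olig1* kept its call in all 5, *Lhx9* in 4 and *Lhx2* in 0, and the 3 lower genes kept theirs. *Isl2*, the relative of *Isl1*, did not pass (0.59, adjusted p = 0.0978 from limma), nor did any of the 3 tested Iroquois relatives. With equal experiment numbers paired, 6 of the 11 were higher, *Isl2* (adjusted p = 0.0263 from limma) and *Irx4* (adjusted p = 0.0145) among them. That pairing called 7757 of all 21390 tested probe sets higher, against 3027 without it. *Isl2* also passed when replicate 2 of P12 control was left out (adjusted p = 0.0499 from limma), and *Irx4* when replicate 3 of P12 *Otx2* CKO was (adjusted p = 0.0394). *Lhx2* also lost its call without P12 *Otx2* CKO replicate 2 or P12 control replicate 1 or 3 (adjusted p = 0.0604 to 0.0773 from limma).

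Of 5 upstream factors with a probe set 4 were lower in P12 *Otx2* CKO retina, *Otx2* (log2 change −2.44, adjusted p = 7.02e-05 from limma), *Crx* (−5.15, adjusted p = 1.42e-06), *Sebox* (−2.92, adjusted p = 0.000124) and *Prdm1*. *Neurod4*, a proneural factor of bipolar and amacrine cells, had signals averaging 1275 ± 904 in *Otx2* CKO and 548 ± 255 in control retina (SD, n = 3 each) and did not pass (1.10, adjusted p = 0.227 from limma), but it did with the pairing (adjusted p = 0.000268). Of 23 proteins of mature bipolar cells 17 were tested, and 10 were lower and 2 higher in *Otx2* CKO retina. Over all tested probe sets 4.54% were lower and 14.2% higher. Among the called genes named here, *Cabp5* and *Gng13* reached the signal limit in control retina only, and *Syt2* in *Otx2* CKO retina only. The direction of these genes is therefore not independent of that limit. With the limit removed, 9 of the 17 were lower and 0 higher. The genes called lower included *Cabp5*, a calcium-binding protein (39.0-fold), and *Pcp2*, a G protein regulator of ON bipolar cells (38.0-fold). They also included *Gng13*, a G protein gamma subunit of the same cells (21.3-fold), and *Scgn*, a calcium-binding protein of cone bipolar cells (12.7-fold). In the same list *Gnao1* (log2 change 0.02, adjusted p = 0.969 from limma) and *Rgs7* (0.03, adjusted p = 0.948) did not pass. *Trpm1*, with means of 40.6 in *Otx2* CKO and 35.9 in control retina, was not tested. *Prkca*, the usual marker of rod bipolar cells, averaged 315 ± 236 in *Otx2* CKO and 668 ± 249 in control retina and did not pass in the deposited signals (−1.22, adjusted p = 0.0684 from limma). It was lower under each of the 5 scalings (−1.57 to −1.45, adjusted p = 0.00296 to 0.0284 from limma) and with the pairing (adjusted p = 1.19e-05). Leaving out replicate 1 of P12 *Otx2* CKO (−1.77, adjusted p = 0.00528 from limma) or replicate 2 of P12 control (−1.51, adjusted p = 0.0328) also brought it past the threshold. *Prkar2b* and *Syt2*, both higher (1.71, adjusted p = 0.0356, and 0.80, adjusted p = 0.0250, from limma), lost the call under 3 and 5 of the 5 scalings, and under 13 and 10 of all 23 alternatives.

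**Figure D5:**
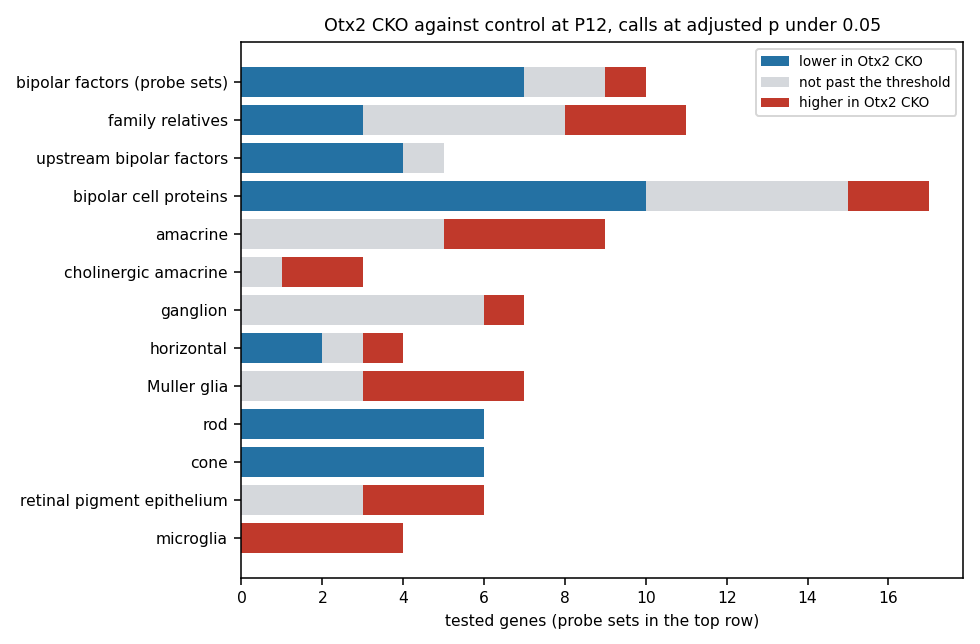
Number of tested probe sets of the bipolar factors (top row) and of tested genes in 12 lists that were lower (blue), higher (red) or not past the threshold (grey) in *Otx2* CKO against control retina at P12. The rod and cone rows are lower throughout, with 6 of 6 each, the microglia row is higher throughout, with 4 of 4, and the bipolar factors were lower in 7 of 10. Of all tested probe sets 4.54% were lower and 14.2% higher.

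Markers of other retinal cells moved at P12 as well, and their part in the results for the members was not tested. All 6 tested rod genes and all 6 tested cone genes were lower in *Otx2* CKO retina, with summed signals of 723 to 1678 in *Otx2* CKO and 22756 to 29968 in control arrays for rods. Amacrine cells, of which some make Isl1 or Prdm8, had 4 of 9 tested markers higher and 0 lower, and their summed signal was 11158 to 15804 in *Otx2* CKO and 6240 to 9242 in control arrays. Of the cholinergic amacrine list, for the starburst cells that make Isl1, 2 of 3 were higher, *Megf10* and *Sox2*, while *Slc18a3*, the vesicular acetylcholine transporter, had 105 ± 2.92 in *Otx2* CKO and 87.3 ± 15.3 in control retina (log2 change 0.23, adjusted p = 0.395 from limma, and below 0 under 4 of the 5 scalings). *Megf10* lost its call under 9 of 23 alternatives and *Sox2* under 2. Of the ganglion cell list, whose cells also make Isl1, 1 of 7 was higher and 0 were lower. Muller glia had 4 of 7 higher, retinal pigment epithelium 3 of 6, microglia 4 of 4, and horizontal cells 1 of 4 higher and 2 lower. Under the 5 scalings the higher counts were 2 to 4 for amacrine cells, 1 for cholinergic amacrine cells, 0 for ganglion cells, 1 for Muller glia, 2 for retinal pigment epithelium and 3 to 4 for microglia. With the pairing they were 7 for amacrine, 4 for ganglion and 2 for horizontal cells. The pairing also raised the calls over all 21390 tested probe sets, to 7757 higher from 3027, so these counts are not particular to the lists.

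At P1, where no member passed, 2 of the 2 tested rod genes, *Nrl* (log2 change −3.22, adjusted p = 0.00246 from limma) and *Sag* (−2.83, adjusted p = 0.00226), and 1 of the 2 tested cone genes, *Opn1sw* (−2.63, adjusted p = 0.00873), were lower in *Otx2* CKO retina. Of the upstream factors *Crx* (−3.11, adjusted p = 0.00324 from limma) and *Prdm1* (−2.41, adjusted p = 0.0263) were lower. Over all 8384 tested probe sets 0.179% were lower. *Nrl*, *Sag*, *Opn1sw*, *Crx* and *Prdm1* all reached the limit of 50 at P1 in control retina only. Their direction is therefore not independent of that limit. The *Prdm1* call was lost under 10 of 23 alternatives (7 of them single arrays left out, adjusted p up to 0.217 from limma) and that of *Opn1sw* under 5 (4 of them single P1 arrays, up to 0.0919 with an offset of 50). None of the 7 tested amacrine, 7 ganglion and 5 Muller glia genes passed, and with the pairing 1 amacrine gene did, and *Neurod4* was lower (−1.61, adjusted p = 9.37e-07 from limma, against 0.910 without the pairing). Over all tested probe sets at P1 the pairing called 79 lower and 4 higher. *Otx2* itself was lower in every *Otx2* CKO array at P1, with a log2 change of −1.23 (adjusted p = 0.205 from limma), and it passed only where arrays of equal experiment number were paired by a block (adjusted p = 0.000759).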

How the data were processed

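Genome-wide signals of 12 Affymetrix Mouse Genome 430 2.0 arrays were used, 3 for each genotype and age. According to the methods, the authors labeled total RNA with cDNA synthesis and IVT labeling kits and determined the deposited signal intensities, linear and not negative, with GeneChip Operating Software 1.4. Scaling, normalization and detection calls are not given in the sources used here, and the number of arrays limits the precision. Genotypes follow titles and genotype fields, since 8 free-text descriptions name the other genotype.

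Signals as deposited (genotype) or quantile normalized over the 12 arrays (age) were fitted as log2(signal + 16) with lmFit and eBayes with a trend (limma 3.58.1, R 4.3.3), in 1 model of 4 groups without a block, on probe sets with a mean of at least 50, after 64 control probe sets were removed (34958 of 45101 probe sets have 1 gene symbol in the platform annotation, 932 several and 9211 none), and p-values were adjusted after Benjamini-Hochberg. The code was tested on simulated data. Figures were drawn with matplotlib 3.10.9. Titles number the arrays of each group as experiments 1 to 3. Deviations from the group means correlated between genotypes at 0.540 to 0.881 (P12) and 0.173 to 0.327 (P1) for equal numbers and at −0.797 to 0.048 for unequal ones. Deviations within a group cancel, which partly forces the negative values. The titles do not say what arrays of equal number share. The numbers were used as a block in an alternative, and the main p-values take no account of a pairing. Alternatives were 5 scalings (quantile over 12 arrays or within an age, median, trimmed mean within an age, spikes), offsets of 1 and 50, no signal limit, no trend, the block, each age alone, signals as deposited for the ages, the methods' signal log ratio limits, and leaving out each array. Quantile normalization within an age was chosen after seeing the data.

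The members and lists were chosen with earlier results of these data known. Named were all members, *Otx2*, family relatives, up to 4 genes of a list past the threshold by size of change, and the 3 genes most like each member (r over 12 arrays, brightest probe set). *Neurod4*, *Prkca*, *Prkar2b*, *Syt2* and *Slc18a3* were named after their values were seen.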

Additional observations from a re-analysis of the deposited data

Results flagged for a closer look

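For 7 probe sets the genotype effect (*Otx2* CKO minus control) at P12 differed from that at P1 by limma's test of the difference, which is what singled them out. The difference of the log2 changes was −2.70 and −2.32 for *Isl1* (1450723_at and 1422720_at), −2.91 and −1.82 for *Vsx1* (1450487_at and 1422104_at), −2.11 for *Bhlhe23* and −2.13 and −1.53 for *Lhx4* (1439905_at and 1421483_at), each with a lower effect at P12. The part of the dim P1 signals of *Vsx1*, *Bhlhe23* and *Lhx4*, all under the limit of 50, in these differences was not tested. With 3 arrays in a group, single arrays that stand apart from their group were not searched for.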

How the results depend on the processing

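Of the 7 member probe sets lower at P12, 7 stayed so under every alternative except where P12 was fitted alone, when *Vsx1* 1422104_at was lost. The count higher at P12, 1 (*Prdm8*), was 0 under the 5 scalings, an offset of 1, no signal limit, P12 fitted alone and the signal log ratio limits, and 0 to 2 when single arrays were left out. At P1 it was 0 in both directions under every alternative, and *Prdm8* turned to 0.037 with spike scaling. When single arrays were left out, *Isl1* at P1 ranged over −0.014 to 0.32 (1450723_at) and −0.026 to 0.18 (1422720_at), below 0 without P1 *Otx2* CKO replicate 1 in both and also without replicate 2 in the second. For the difference between the ages, 7 lower became 4 with an offset of 1, 5 with median scaling and 5 to 7 when arrays were left out. With the replicate block 1 was higher (*Prdm8*, 1.08, adjusted p = 0.0154 from limma) and *Irx6* was also past the threshold, and the block changed no other call of a member. Among the other genes named, it brought *Otx2* and *Neurod4* at P1 and *Neurod4*, *Prkca*, *Isl2* and *Irx4* at P12 past the threshold. *Slc18a3* at P12 turned to −0.057 (quantile over 12 arrays), −0.016 (median), −0.037 (trimmed mean) and −0.062 (quantile within an age). In the difference between the ages, *Irx5* turned to −0.18 (quantile over 12 arrays), −0.20 (median), −0.16 (trimmed mean), −0.21 (spikes) and −0.15 (quantile within an age). In the age comparisons, signals as deposited gave 0 lower and 3 higher in *Otx2* CKO retina, where *Isl1* turned to 0.16 and 0.59, *Irx5* to 0.045 and *Irx6* to 0.79, and 0 lower in control retina. Without a signal limit 8 were higher in control retina, since more probe sets were tested, and leaving out arrays gave 3 to 4 lower and 1 higher in *Otx2* CKO and 1 lower and 5 higher in control retina, and *Irx6* in control retina ranged over −0.0065 to 0.54, lowest without P12 control replicate 2. Otherwise the cause was not tested. Over all probe sets at P12, the block gave 1552 lower and 7757 higher and each age fitted alone 438 and 377, against 971 and 3027. Signals under the offset of 16 limit how well the size of the change is known for *Vsx1*, *Bhlhe23* and *Lhx4*.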
